A study of Mus musculus with 3 samples.

Results

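The genes described here are 10 markers of the arteriovenous axis, namely the ephrin ligands Efnb2 and Efna1, the Eph receptor Ephb4, the semaphorin Sema3g, the semaphorin receptor Plxnd1, the netrin receptor Unc5b, the connexins Gja1, Gja4 and Gja5, and the Tec-family kinase Bmx. They were taken by symbol from the 31053 genes of the feature lists of all 3 libraries, and all 10 were present. Blood endothelial cells (EC) had been sorted from Peyer's patches (PP), the lymphoid follicles of the gut wall, and profiled by droplet 3′ single-cell RNA sequencing with unique molecular identifiers (UMIs). The control group was 1 library, labelled WT and of strain C57BL/6. The EC-iCOUPOE group was 2 libraries, replicates 1 and 2, of strain CDH5(PAC)CreERT2;COUP-TFIIOE/OE, in which tamoxifen-activated Cre switches on a COUP-TFII (Nr2f2) transgene. Cre is driven by Cdh5, a gene of all endothelium, so arteries, capillaries, veins and lymphatics are all targeted, and whether a given cell recombined was not measured. Mice of both groups were 6 to 10 weeks old, and cells were taken between day 14 and day 19 after tamoxifen. Both sexes were pooled within a library, and the number of mice and the day of each library are not given in the sources used here. The sexes were in unlike shares. Blood EC with Xist UMIs only and with Y-linked UMIs only numbered 1670 and 111 in control. They numbered 1253 and 818 in replicate 1, and 476 and 164 in replicate 2. Comparisons over all cells were not adjusted for sex. Of the 10 genes, Bmx lies on the X chromosome. The labels name only C57BL/6 for the control library, while the study's methods name both littermates without Cre and WT mice as controls.

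Arteries and veins carry different surface molecules from early development on. Ephrin-B2 on arterial EC and its receptor EphB4 on venous EC mark the border between them, and Notch signalling maintains the arterial programme, which COUP-TFII represses in veins. Semaphorins, plexins and netrin receptors of the Unc5 family are guidance molecules shared with axons, and connexins build the gap junctions that couple EC along the arterial wall.

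The libraries held 3548983 to 17417260 UMIs over 1441 to 6080 barcodes, and 2394 control, 3276 replicate 1 and 966 replicate 2 cells were kept as blood EC. The control library stood apart in what else it held, with 2334 fibroblast-like cells against 8 and 5, and with 2 lymphatic-like cells against 900 and 125. A total of 12 barcodes was shared by the control library and replicate 2, and none by the other pairs of libraries. Classes were named from marker genes that include none of the 10, and the 10 genes were left out of the clustering. They were arterial-like (496, 794 and 234 cells in control, replicate 1 and replicate 2), capillary-like (148, 860 and 342), capillary resident progenitor-like, CRP (161, 205 and 93), postcapillary venule-like, PCV (375, 720 and 93), and high endothelial cell-like, HEC (466, 515 and 25). Cytl1, an entry of the arterial marker list, was among the leading genes of the PCV-like cluster. A further 748, 182 and 179 cells stayed unnamed, most of them in 2 clusters led by the capillary list. Those clusters, 7 and 3, scored higher on that list (mean log2 ratio 0.96 and 0.8) than the clusters that took its name. The latter were clusters 11, 8 and 1, at 0.53, 0.38 and 0.03. Nr2f2, the targeted gene, stood at 114 CPM (UMIs of a gene scaled by the total of the cells summed) in control blood EC, at 1721 CPM in replicate 1 and at 1174 CPM in replicate 2, higher in both libraries labelled as overexpressing it.

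The clusters that made up a class differed between groups. Most control arterial-like cells (348) belonged to cluster 5, led by Mgp, Kcne3 and Serpinf1, while most EC-iCOUPOE arterial-like cells (580 and 130) belonged to cluster 2, led by Cyp1a1, Enpp6, Stmn2 and Eln, which held 8 control cells. Cluster 5 made up 14.5% of control blood EC, 3.76% in replicate 1 and 4.66% in replicate 2. Cluster 10, led by Pi16, Ckb and Nebl, was the remaining arterial-like cluster, with 140, 91 and 59 cells. Gkn3, a marker of mature arteries, stood at 149 CPM in control arterial-like cells, 2.40 CPM in replicate 1 and 0 in replicate 2. Within cluster 5 it stood at 199.7, 17.2 and 0 CPM. Other markers that named the arterial class went different ways. In arterial-like cells Stmn2 stood at 715.5, 833 and 770 CPM and Mgp at 1080, 385 and 525 CPM. Fbln5 stood at 1205, 863 and 712 CPM there. Within cluster 5, Stmn2 stood at 731.5, 1131 and 993 CPM and Mgp at 1366, 2106 and 1340 CPM. Fbln5 stood at 1301, 1613 and 1218 CPM in that cluster. According to the study's methods, mature Gkn3+ arterial EC could be recognized only among its WT cells. Whether the capture of such cells differed between libraries was not tested. Among capillary-like cells, most EC-iCOUPOE cells (495 and 283) were in cluster 1 and most control cells (115) in cluster 11. Among HEC-like cells, most EC-iCOUPOE cells (418 and 23) were in cluster 4, led by Ccl21a and Hamp, and most control cells (375) in cluster 6, led by Glycam1. For that reason values of the 10 genes are also given in single clusters with at least 20 cells of every library.

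The promoter windows of the 4 genes that passed the test in arterial-like or capillary-like cells are printed below so that the genes can be located, with 250 bases upstream of the RefSeq transcription start on GRCm38.p6 (RefSeq, mouse), 5′ to 3′ on the strand of the gene. Capitals mark GGTCA or its reverse complement TGACC, the core element bound by nuclear receptors of the COUP-TF type, searched on both strands. The letters occurred in the windows of 4 of the 10 genes (Efnb2, Sema3g, Plxnd1 and Gja1), all 10 of which were matched, and in 35.2% of 32851 mouse promoters of this length. No window of Unc5b, Gja4 or Gja5 held them, which says only that these letters are not within these bases.
Unc5b, chr10:60831582-60831831, minus strand: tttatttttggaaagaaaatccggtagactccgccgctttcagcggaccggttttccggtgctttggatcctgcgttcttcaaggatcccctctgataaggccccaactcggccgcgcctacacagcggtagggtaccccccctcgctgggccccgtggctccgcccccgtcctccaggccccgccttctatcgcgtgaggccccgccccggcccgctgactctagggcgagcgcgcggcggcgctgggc
Sema3g, chr14:31217623-31217872, plus strand: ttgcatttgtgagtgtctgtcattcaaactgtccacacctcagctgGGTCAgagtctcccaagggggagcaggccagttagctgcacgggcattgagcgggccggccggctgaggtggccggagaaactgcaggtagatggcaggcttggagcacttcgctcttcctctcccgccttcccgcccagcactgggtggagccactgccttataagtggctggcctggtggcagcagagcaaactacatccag
Gja4, chr4:127314040-127314289, minus strand: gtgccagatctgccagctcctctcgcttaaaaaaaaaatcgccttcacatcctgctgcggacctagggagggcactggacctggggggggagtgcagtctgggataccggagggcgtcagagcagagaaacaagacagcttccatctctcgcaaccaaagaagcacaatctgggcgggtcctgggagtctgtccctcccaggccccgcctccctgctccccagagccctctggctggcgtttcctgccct
Gja5, chr3:97032152-97032401, plus strand: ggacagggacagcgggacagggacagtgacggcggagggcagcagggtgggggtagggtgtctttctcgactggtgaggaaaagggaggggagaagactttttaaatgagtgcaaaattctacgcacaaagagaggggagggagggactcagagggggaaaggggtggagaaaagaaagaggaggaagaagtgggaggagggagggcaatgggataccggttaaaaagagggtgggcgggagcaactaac
The genes themselves lie on chr10:60762593-60831581 (Unc5b), chr14:31217860-31230352 (Sema3g), chr4:127311421-127314039 (Gja4) and chr3:96904693-97077416 (Gja5) in the GENCODE annotation of GRCm38. The RefSeq start used for Gja5 lies inside the GENCODE span, so its window is not upstream of the GENCODE gene start. In Sema3g the single match began 204 bases before the transcription start.

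Among the named classes of the control library, 7 of the 10 genes had their highest level in arterial-like cells. Levels are CPM of UMIs summed over the cells of a class. These were Efnb2, Efna1, Sema3g, Unc5b, Gja4, Gja5 and Bmx. Unnamed cells were left out of this ranking. Over every cluster led by the capillary list, unnamed ones included, control Unc5b stood at 246.5 CPM (222 to 273). In control cells of arterial-like clusters 5 and 10 it stood at 228.3 CPM (200.9 to 258.4), so the intervals overlapped. Efna1 stood at 318 and 419 CPM in the same order. With 1 control library the intervals are exact Poisson intervals at 95%, and they cover counting error only. The plot of levels by class and library shows all 10 genes on their own scales.

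**Figure D1:**
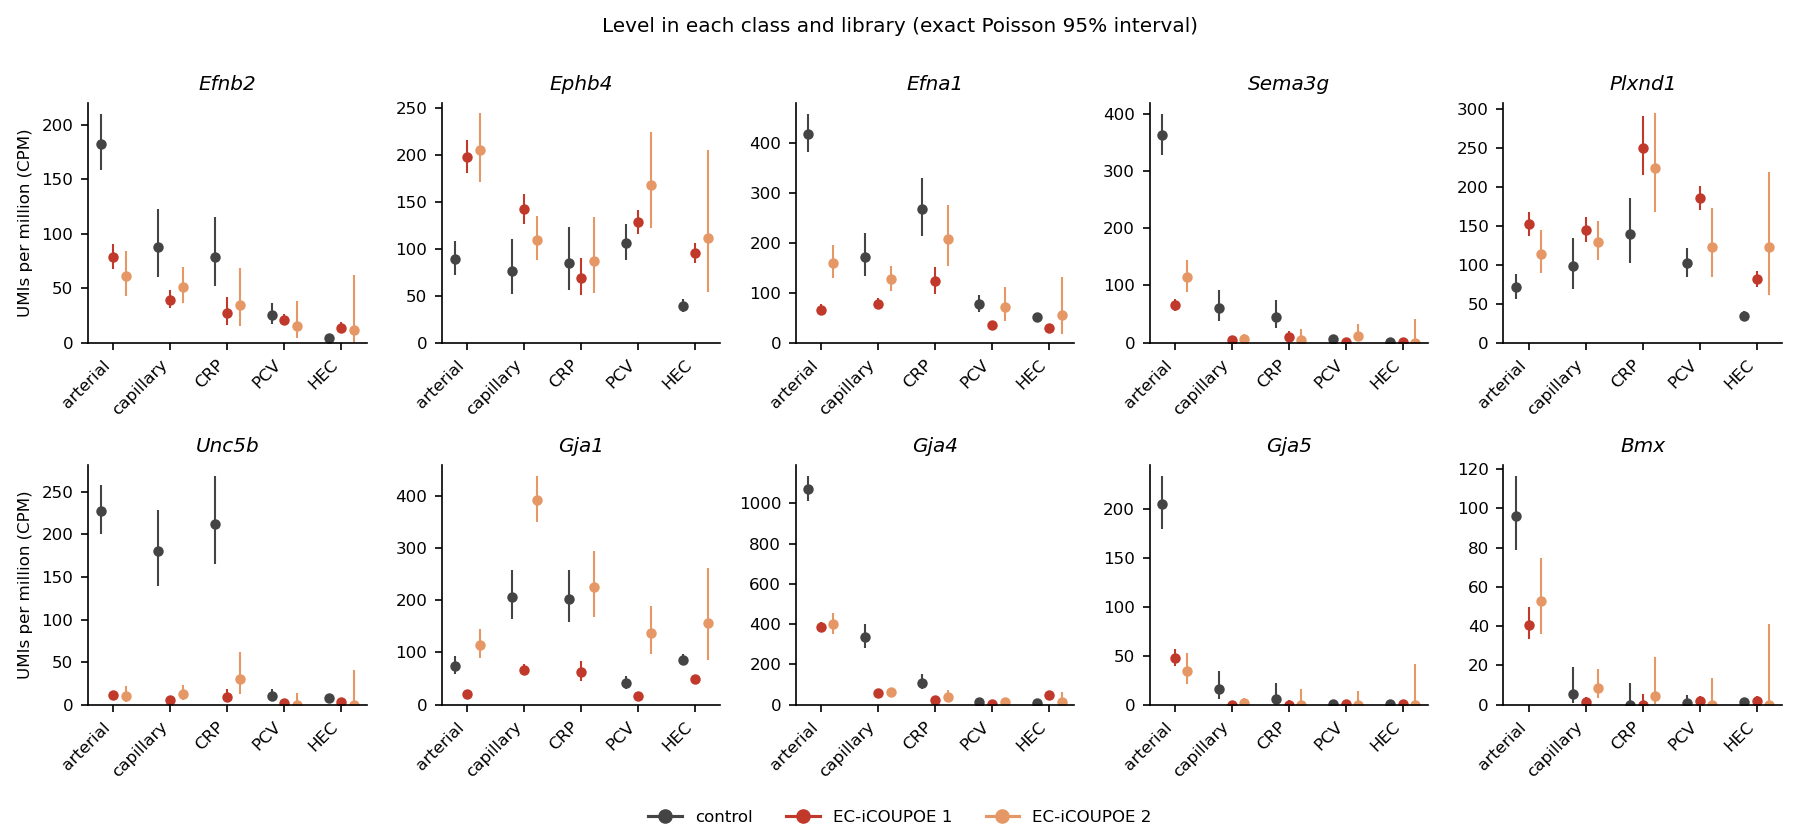
Level of each gene in CPM (y axis) in arterial-like, capillary-like, CRP-like, PCV-like and HEC-like cells (x axis), with points for the control library and the 2 EC-iCOUPOE libraries and bars for exact Poisson 95% intervals. Control arterial-like cells held the highest point for Efnb2, Efna1, Sema3g, Unc5b, Gja4, Gja5 and Bmx, and the EC-iCOUPOE points for Unc5b stayed at or below 30.3 CPM in every class.

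Gja4, Gja5, Bmx and Sema3g were far lower in venous than in arterial-like cells. Gja4 and Gja5 encode the arterial connexins Cx37 and Cx40. Gja4 stood at 1071 CPM (1011 to 1134) in control arterial-like cells, 336 CPM in capillary-like, 109 CPM in CRP-like, 14.8 CPM in PCV-like and 10.3 CPM in HEC-like cells. The first 4 of these levels were apart from one another by their intervals, and PCV-like and HEC-like cells overlapped. Gja5 stood at 205 CPM (179 to 234) in arterial-like cells and at 15.9 CPM in capillary-like, 6.06 CPM in CRP-like, 0.870 CPM in PCV-like and 1.21 CPM in HEC-like cells. Bmx, a cytoplasmic tyrosine kinase long used as an arterial marker, was similarly restricted, at 96.3 CPM in arterial-like cells, 5.29 CPM in capillary-like cells and at most 1.21 CPM in the other classes. Sema3g, a secreted semaphorin of arterial EC, stood at 362 CPM in arterial-like cells, 60.9 CPM in capillary-like, 45.5 CPM in CRP-like, 6.96 CPM in PCV-like and 1.21 CPM in HEC-like cells.

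Unc5b and the ephrins were shared more widely between arteries and capillaries. Unc5b, a netrin and Robo4 receptor of arterial and sprouting EC, stood at 228 CPM (200.5 to 258) in control arterial-like, 212 CPM in CRP-like and 180 CPM (140 to 228) in capillary-like cells, 3 levels whose intervals overlapped. It dropped to 10.4 CPM in PCV-like and 7.89 CPM in HEC-like cells. Efnb2 stood at 183 CPM in arterial-like, 87.4 CPM in capillary-like, 78.8 CPM in CRP-like, 25.2 CPM in PCV-like and 4.25 CPM in HEC-like cells. Efna1, an ephrin-A ligand, stood at 418 CPM in arterial-like, 267 CPM in CRP-like, 172 CPM in capillary-like, 76.6 CPM in PCV-like and 51.6 CPM in HEC-like cells.

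The remaining genes did not peak in arteries. Ephb4, the receptor for ephrin-B2, stood at 106 CPM in PCV-like, 89.1 CPM in arterial-like, 84.9 CPM in CRP-like and 76.8 CPM in capillary-like cells, with overlapping intervals between neighbours, and only HEC-like cells were apart at 38.8 CPM. Plxnd1, which receives semaphorin signals, stood at 139.5 CPM in CRP-like, 102 CPM in PCV-like, 97.9 CPM in capillary-like and 71.1 CPM in arterial-like cells, where neighbours in this order overlapped but CRP-like (102 to 186 CPM) and arterial-like cells (56.3 to 88.6 CPM) did not. HEC-like cells were lowest at 34.0 CPM. Gja1, which encodes Cx43, was highest in capillary-like (207 CPM) and CRP-like cells (203 CPM) and lowest in PCV-like cells (40.9 CPM).

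In EC-iCOUPOE the arterial order was retained for some of these genes and not for others. Relative to capillary-like cells of the same library, Gja4 in arterial-like cells stood 3.19 times higher in control, 6.64 times in replicate 1 and 6.34 times in replicate 2. For Gja5 the corresponding ratios were 12.9 in the control library, at least 36.5 in replicate 1, where capillary-like cells had 0 UMIs and the bound takes 3 counts, and 27.9 in replicate 2, where they had 1 UMI and the log2 ratio of 4.8 had a counting interval of 2.17 to 10.17, which overlapped that of the control (2.55 to 5.15). For Sema3g they were 5.94, 12.5 and 18.4. Efna1 stood 2.43 times higher in arterial-like than capillary-like cells of the control library, 0.845 times in replicate 1 and 1.25 times in replicate 2. These ratios describe which class was higher and were tested for the change between groups below.

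The comparison of arterial-like cells set the control library against the EC-iCOUPOE libraries. Most control cells of the class were of cluster 5 and most EC-iCOUPOE cells of cluster 2. Cluster 2 scored lower on the arterial list (mean log2 ratio 0.31, against 1.54 for cluster 5). The class test therefore cannot tell a change within arterial EC from this difference in clusters. Unc5b, Gja5 and Sema3g were lower in EC-iCOUPOE, and none of the 10 was higher. That is 3 of 10 tested genes lower, beside 0.648% of all 9104 genes tested called lower, 0.945% higher and 1.59% in either direction. The median log2 fold change of the 10 was −1.32, against 0.03 over all genes tested. The 10 genes and the lists used below were chosen with earlier results of these data known. Shares and medians set beside all genes, here and below, are therefore descriptions. UMIs summed per library were tested with edgeR's quasi-likelihood test, 1 control library against 2, with Benjamini-Hochberg adjustment over all genes at 0.05. The lone control library is assumed to vary as the EC-iCOUPOE libraries do, p-values measure only the spread between these libraries, and an exact permutation of 1 against 2 could not go below 0.333.

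Unc5b had the largest log2 fold change of the 10. It stood at 228 CPM (253 UMIs) in the control library, 11.2 CPM (28 UMIs) in replicate 1 and 9.93 CPM (6 UMIs) in replicate 2. Both EC-iCOUPOE libraries were close to the level of control venules, and their intervals lay far below the control interval. The log2 fold change was −4.32 ± 0.43 (approximate SE, edgeR adjusted p = 0.000143). Per library the log2 ratio to control was −4.34 and −4.52, a mean of −4.43 ± 0.12 (SD, n = 2). After thinning each cell to 1000 UMIs, 19.6% of control arterial-like cells held an Unc5b UMI (97 of 496, 16.2% to 23.3%, Clopper-Pearson), against 0.756% in replicate 1 and 0.855% in replicate 2. Without thinning the shares were 35.1%, 3.40% and 2.56%, at median depths of 1877, 2741.5 and 2392.5 UMIs. Lymphocyte-like cells, taken as a background, formed a cluster led by Prss34, Igkc and Mcpt8. They showed 0 of 18 cells in control and 0 of 30 cells in replicate 1. At a bound of 3 cells, this allows shares of up to 16.7% and 10.0% of cells with a UMI. In pericyte-like or smooth muscle-like cells Unc5b stood at 110 CPM (41 UMIs) in control, 8.45 CPM (7 UMIs) in replicate 1 and 0 in replicate 2. Sema3g stood at 113, 47.1 and 3.56 CPM there. In epithelium-like cells Unc5b stood at 13.09, 13.35 and 11.46 CPM, on few UMIs. What lies behind the pericyte values was not tested.

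Of the 3 connexins in arterial-like cells, Gja5 passed the test, and Gja4 and Gja1 did not. Gja5 stood at 205 CPM in the control library, 48.0 CPM in replicate 1 and 34.8 CPM in replicate 2, with a log2 fold change of −2.20 ± 0.39 (edgeR adjusted p = 0.00938). Gja4 stood at 1071, 387 and 402 CPM, with a log2 fold change of −1.34 ± 0.45 that did not pass (edgeR adjusted p = 0.214). Gja1 went opposite ways, at 74.7 CPM in the control library, 20.01 CPM in replicate 1 and 114 CPM in replicate 2, so the EC-iCOUPOE libraries lay on either side of the control. Its log2 fold change was −0.13 ± 0.71 (edgeR adjusted p = 0.983).

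Among the guidance ligands, Sema3g stood at 362 CPM in the control library, 65.6 CPM in replicate 1 and 114 CPM in replicate 2. Its log2 fold change was −1.93 ± 0.45 (edgeR adjusted p = 0.0441), and its call was the nearest of the 3 to the threshold. Efna1 stood at 418, 65.6 and 159 CPM (−1.81 ± 0.51, edgeR adjusted p = 0.109), and Efnb2 at 183, 78.5 and 61.3 CPM (−1.29 ± 0.39, edgeR adjusted p = 0.142). Both EC-iCOUPOE libraries were below the control for these ligands, and neither ephrin passed the test. Bmx stood at 96.3, 40.8 and 53.0 CPM (−0.97 ± 0.43, edgeR adjusted p = 0.448).

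The receptors Ephb4 and Plxnd1 had higher values in EC-iCOUPOE and did not pass. Ephb4 stood at 89.1 CPM in control arterial-like cells, 197 CPM in replicate 1 and 205 CPM in replicate 2 (1.27 ± 0.44, edgeR adjusted p = 0.243). In those cells Ephb4 stood at 1.54 times its own PCV-like level in replicate 1 and 1.23 times in replicate 2, against 0.839 times in the control library. Arterial-like and PCV-like intervals overlapped in replicate 2 (170.7 to 244.8 and 122.1 to 224.0 CPM) and in control, and were apart in replicate 1. Plxnd1 stood at 71.1, 152 and 114 CPM (1.00 ± 0.42, edgeR adjusted p = 0.42).

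These class-level falls depended in part on which clusters made up the class. In clusters 5 and 10 combined, a choice made after seeing the data, Unc5b was still lower (−3.53, edgeR adjusted p = 5.65e-05, beside 1.0% of genes called), and Gja5 (−1.27, edgeR adjusted p = 0.262) and Sema3g (−0.84, edgeR adjusted p = 0.746) did not pass. The Unc5b call was lost only among cells with Xist UMIs alone (−4.51, edgeR adjusted p = 0.22) or Y-linked UMIs alone (−4.74, edgeR adjusted p = 0.164), of the alternatives run with a test. Summed fibroblast markers, 7 genes, stood at 89.1 CPM in control arterial-like cells with none at 0, at 1.20 CPM in replicate 1 with 4 at 0, and at 14.9 CPM in replicate 2 with 2 at 0, and their part in these values was not tested.

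Within cluster 5, which held most control arterial-like cells, Unc5b was lower in EC-iCOUPOE. The arterial connexin Gja4 and the kinase Bmx had values near the control. Cells entered this cluster by likeness over genes other than the 10, and it held 14.5% of control, 3.76% of replicate 1 and 4.66% of replicate 2 blood EC. Near-control values of genes that vary with those genes therefore do not show that arterial EC as a whole kept them. Of the 10 genes 1 passed the test, Unc5b, beside 0.255% of 5875 genes lower and 1.21% in either direction. Unc5b stood at 205 CPM (161 UMIs) in the control library, 34.4 CPM (12 UMIs) in replicate 1 and 18.7 CPM (2 UMIs) in replicate 2, with a log2 fold change of −2.75 ± 0.55 (edgeR adjusted p = 0.00017). The control interval of 174 to 239 CPM lay above both others, which reached 60.2 and 67.7 CPM. Thinned, 17.2% of control cells held an Unc5b UMI, against 0 of 123 and 0 of 45. At a bound of 3 cells, these allow up to 2.44% and 6.67%. Unthinned, the shares were 31.0%, 8.94% and 4.44%. Nr2f2 stood at 8.91 CPM in the control cells of this cluster, 1217 CPM in replicate 1 and 731 CPM in replicate 2. Pericyte-like or smooth muscle-like cells held 1169 and 619 CPM in the same EC-iCOUPOE libraries. The part of these UMIs that came from other cells was not tested.

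**Figure D2:**
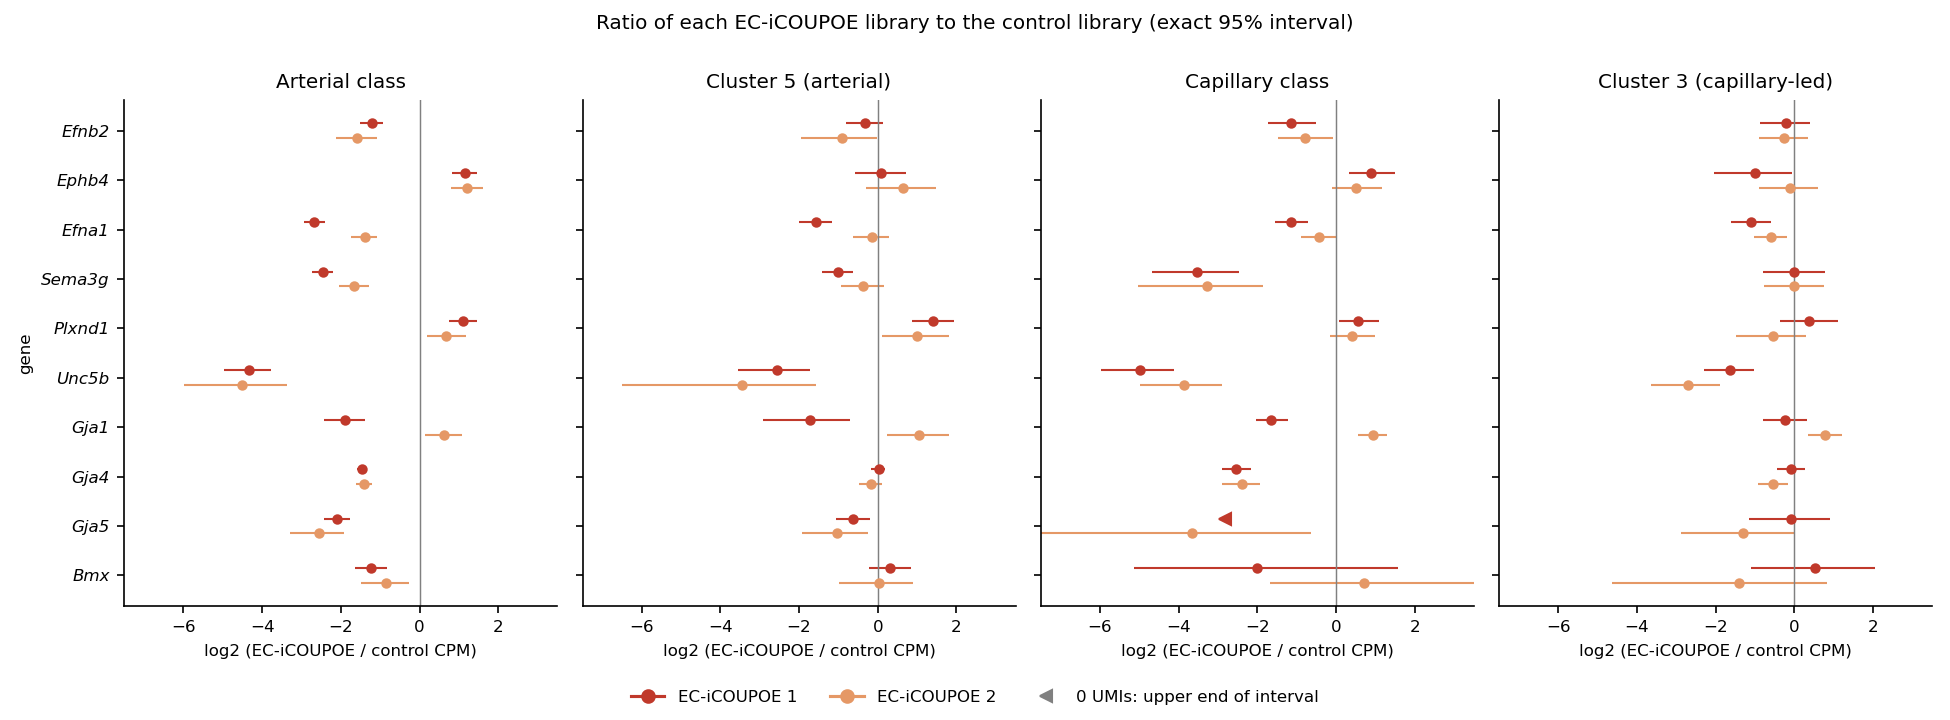
Log2 ratio of CPM in each EC-iCOUPOE library to the control library (x axis) for the 10 genes (y axis) in arterial-like cells, cluster 5, capillary-like cells and cluster 3, with bars for exact 95% intervals and a triangle for the upper end of the interval where the EC-iCOUPOE library had 0 UMIs. In cluster 5 Gja4 lies at 0.02 and −0.17, and Unc5b at −2.57 and −3.45.

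Gja4 stood at 1127 CPM (1054 to 1204) in control cluster 5, 1139 CPM (1030 to 1257) in replicate 1 and 1002 CPM (822 to 1211) in replicate 2. The intervals of all 3 overlapped, and the log2 ratios to control were 0.02 (−0.16 to 0.19) and −0.17 (−0.47 to 0.12). The edgeR log2 fold change was −0.03 ± 0.56, which does not show that the levels were equal between groups. Bmx stood at 111, 138 and 112 CPM, also with overlapping intervals. Gja5 stood at 268, 175 and 131 CPM (−0.74 ± 0.49), Sema3g at 401, 198 and 309 CPM (−0.65 ± 0.51), Efnb2 at 193, 155 and 103 CPM (−0.49 ± 0.48) and Efna1 at 479.6, 161 and 431 CPM (−0.70 ± 0.52), and none of these passed. By counting error alone, both EC-iCOUPOE intervals of Gja5 (134 to 225 and 71.7 to 220.1 CPM) lay below that of the control (233 to 307 CPM), while for Sema3g and Efna1 replicate 2 overlapped the control. Plxnd1 stood higher, at 75.1, 198 and 150 CPM (1.28 ± 0.52, edgeR adjusted p = 0.462). Its log2 ratios had counting intervals of 0.88 to 1.93 and 0.10 to 1.81. Ephb4 stood at 84.0, 89.0 and 131 CPM (0.37 ± 0.52) and Gja1 at 85.2, 25.8 and 178 CPM. None of these passed either.

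In cluster 10, Unc5b stood at 288 CPM (89 UMIs) in the control library, 7.79 CPM (2 UMIs) in replicate 1 and 6.47 CPM (1 UMI) in replicate 2. It was the single gene of the 10 called there (−5.17 ± 0.57, edgeR adjusted p = 0.00143), beside 0.224% of 4905 genes lower. Gja5 had 17 UMIs in the control cells of this cluster and 1 UMI in each EC-iCOUPOE library, and did not pass (edgeR adjusted p = 0.723). Gja4 stood at 936, 506 and 582 CPM (−0.73 ± 0.45, edgeR adjusted p = 0.828).

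Cluster 2, nearly all from EC-iCOUPOE, took the arterial name at a low list score (0.31). It had lower values of the arterial genes than cluster 5 of the same libraries. Gja4 stood at 233 CPM in replicate 1 and 134 CPM in replicate 2, Gja5 at 30.6 and 17.5 CPM, and Sema3g at 31.2 and 37.9 CPM. Gja4 and Sema3g, though not Gja5, were below control capillary-like cells (336, 60.9 and 15.9 CPM). Among the naming markers, Mgp stood at 63.9 and 55.5 CPM, against 2106 and 1340 CPM in cluster 5. Stmn2 stood at 720 and 554.5 CPM, against 1131 and 993 CPM. Ephb4 stood at 224 and 213 CPM, against 89.0 and 131 CPM in cluster 5. Since the cluster held 8 control cells, no control value is given.

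**Figure D3:**
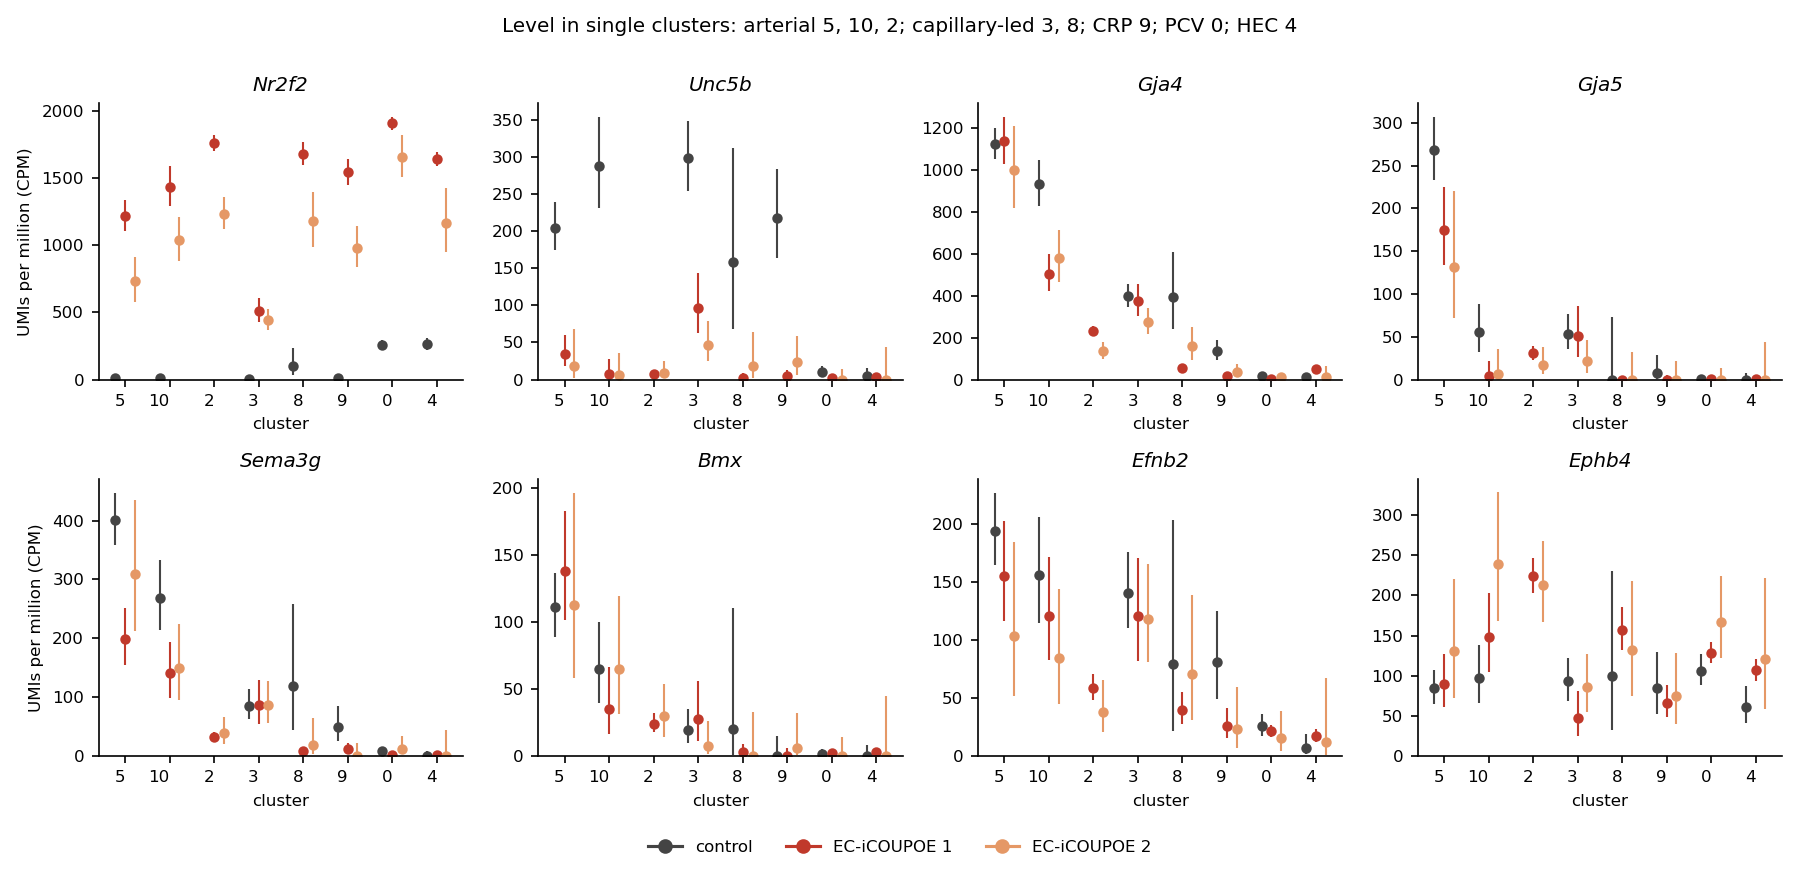
Level in CPM (y axis) of Nr2f2, Unc5b, Gja4, Gja5, Sema3g, Bmx, Efnb2 and Ephb4 in arterial-like clusters 5, 10 and 2, capillary-led clusters 3 and 8, CRP-like cluster 9, PCV-like cluster 0 and HEC-like cluster 4 (x axis), by library, with exact Poisson 95% intervals. Unc5b of the EC-iCOUPOE libraries lies below the control in clusters 5, 10, 3 and 9, while the 3 Gja4 points of cluster 5 lie between 1002 and 1139 CPM.

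Capillary-like cells of the control library, 148 cells, held Nr2f2 at 45 CPM (26.2 to 72.1), above the 9 CPM of arterial-like cells. They held the venous gene Madcam1 at 1316 CPM. Control cells of the unnamed clusters 3 and 7, which scored higher on the capillary list, held Nr2f2 at 3.78 and 3.42 CPM. In those clusters Madcam1 stood at 41.6 and 54.6 CPM. Most control cells of this class were of cluster 11 and most EC-iCOUPOE cells of cluster 1. The class test therefore cannot tell a change within capillary EC from this difference in clusters. In the class as named, Unc5b, Gja4 and Sema3g were lower in EC-iCOUPOE. None was higher, and those lower were 3 of the 8 genes tested, beside 0.86% of 8375 genes lower, 0.657% higher and 1.52% in either direction. Bmx and Gja5 had too few UMIs to be tested. The median log2 fold change of the 8 was −0.84, against 0.04 over all genes tested.

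Unc5b stood at 180 CPM (68 UMIs) in control capillary-like cells, 5.71 CPM (13 UMIs) in replicate 1 and 12.4 CPM (10 UMIs) in replicate 2, and its log2 fold change was −4.44 ± 0.50 (edgeR adjusted p = 0.000923). It was called in capillary-like cells under every alternative run with a test, between −3.06 and −5.02. Gja4 stood at 336, 58.4 and 63.5 CPM (−2.45 ± 0.39, edgeR adjusted p = 0.00782), and Sema3g at 60.9 CPM (23 UMIs), 5.27 CPM (12 UMIs) and 6.22 CPM (5 UMIs) (−3.42 ± 0.56, edgeR adjusted p = 0.00894). The EC-iCOUPOE intervals of all 3 genes lay below those of the control. Gja5 had 6 UMIs in the control library, 0 in replicate 1 and 1 in replicate 2.

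The other genes did not pass in capillary-like cells. Efnb2 stood at 87.4, 39.5 and 51.0 CPM (−0.95 ± 0.43, edgeR adjusted p = 0.464), Efna1 at 172, 77.7 and 127 CPM (−0.74 ± 0.44, edgeR adjusted p = 0.633), Ephb4 at 76.8, 142 and 109.5 CPM and Plxnd1 at 97.9, 144 and 129 CPM. Gja1 again split the EC-iCOUPOE libraries, at 207 CPM in the control, 66.3 CPM in replicate 1 and 392.1 CPM in replicate 2. The same order of libraries held in every named class and over all blood EC (101.5, 41.2 and 249.5 CPM). What lies behind this difference between libraries was not tested. With every cluster led by the capillary list, unnamed ones included, Unc5b was still called (−3.74, edgeR adjusted p = 0.00684, beside 0.687% of genes), and Gja4 (−1.76, edgeR adjusted p = 0.109) and Sema3g (−1.76, edgeR adjusted p = 0.175) were not. Fibroblast markers summed to 76.8 CPM in control capillary-like cells, 0 in replicate 1 and 4.98 CPM in replicate 2, and lymphatic markers to 29.1, 83.9 and 85.9 CPM, and their part was not tested.

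In cluster 3, led by the capillary list and by Scgb3a1, Esm1 and Cxcl12, Unc5b was again the single gene of the 10 that passed, of 9 tested, beside 0.158% of 5062 genes lower. It stood at 299 CPM (158 UMIs), 96.9 CPM (25 UMIs) and 46.3 CPM (13 UMIs), with a log2 fold change of −2.03 ± 0.46 (edgeR adjusted p = 0.00199). Sema3g stood at 85.1, 85.3 and 85.4 CPM (0.05), with intervals that overlapped between all libraries. Gja4 stood at 397, 376 and 274 CPM (−0.25), where replicate 1 overlapped the control and replicate 2 lay below it by counting error, and it did not pass. Nr2f2 stood at 3.78 CPM in control, 512 CPM in replicate 1 and 441 CPM in replicate 2, lower EC-iCOUPOE levels than in the other classes.

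Cluster 8, led by the interferon genes Rsad2, Cmpk2 and Ifit3, was the capillary-like cluster with at least 20 cells of every library (28, 337 and 55). None of the 5 genes tested passed there, beside 1.1% of 2728 genes called by edgeR and 261 at an unadjusted p under 0.05, and DESeq2 was not run on single clusters. Gja4 stood at 396 CPM (20 UMIs), 55.8 CPM (48 UMIs) and 158 CPM (18 UMIs) (−2.07 ± 0.58, edgeR adjusted p = 0.0793), and Unc5b, which was not tested, at 158 CPM (8 UMIs), 2.32 CPM (2 UMIs) and 17.6 CPM (2 UMIs). The Unc5b intervals of both EC-iCOUPOE libraries lay below that of the control (68.4 to 312 CPM).

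CRP-like cluster 9 had 2 of 8 tested genes lower, Unc5b and Gja4, beside 1.04% of 4917 genes. Unc5b stood at 217 CPM in the control, 4.48 CPM in replicate 1 and 23.1 CPM in replicate 2 (−4.48 ± 0.61, edgeR adjusted p = 2.3e-06). Gja4 stood at 137, 17.9 and 34.6 CPM (−2.52 ± 0.56, edgeR adjusted p = 0.00529). Plxnd1, a guidance receptor of sprouting EC, stood at 121, 251 and 266 CPM and did not pass (1.15, edgeR adjusted p = 0.312).

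Venous EC already carry COUP-TFII in the control library, with Nr2f2 at 260 CPM in PCV-like and 154 CPM in HEC-like cells. None of the 7 tested genes passed in PCV-like cells, where edgeR called 41 genes of 9042 (0.453%), had 544 at an unadjusted p under 0.05, and DESeq2 called 26. Unc5b stood at 10.4 CPM in the control, 1.68 CPM in replicate 1 and 0 in replicate 2 (−2.78 ± 1.51, edgeR adjusted p = 0.972), on few UMIs. Ephb4 stood at 106, 128 and 167 CPM and Efnb2 at 25.2, 20.8 and 14.9 CPM. In HEC-like cells, where replicate 2 had 25 cells, none of the 7 tested genes passed either, beside 2.41% of 10326 genes called by edgeR, 925 at an unadjusted p under 0.05 and 26 called by DESeq2. Gja4 stood at 10.3 CPM in the control, 46.5 CPM in replicate 1 and 11.2 CPM in replicate 2 (1.59 ± 0.57, edgeR adjusted p = 0.148), so the higher value came from replicate 1. Ephb4 stood at 38.8, 94.9 and 112 CPM and Plxnd1 at 34.0, 81.2 and 123 CPM, both above the control in each EC-iCOUPOE library. Within cluster 4 Ephb4 stood at 60.4, 106 and 120.3 CPM (0.70 ± 0.59, edgeR adjusted p = 0.994) and Plxnd1 at 41.6, 94.6 and 132 CPM (1.17 ± 0.61, edgeR adjusted p = 0.67). None of the 5 genes tested in that cluster passed, beside 1.57% of 7048 genes called by edgeR and 554 at an unadjusted p under 0.05.

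Whether the change differed between arteries and capillaries was tested as a class by genotype term within library. Of the 10 genes, Gja4 fell less in arterial-like than in capillary-like cells (difference 1.11 ± 0.22, edgeR adjusted p = 4.15e-05) and Efna1 fell more (−1.22 ± 0.26, edgeR adjusted p = 0.000227), beside 4.3% of 9311 genes called. Both classes drew mostly on different clusters in control and EC-iCOUPOE. The term therefore cannot tell a change within a class from that difference. The Gja4 difference was also called in cluster 5 against interferon-gene cluster 8 (2.34 ± 0.44, edgeR adjusted p = 7.72e-05, beside 0.44% of genes) and against CRP-like cluster 9 (2.60 ± 0.50, edgeR adjusted p = 0.000103, beside 1.03%), but not against cluster 3 (0.21, beside 0.049% of genes called). Cells entered cluster 5 by likeness over other genes, so these contrasts do not show the change in arterial EC as a whole. Control cluster 8 held 28 cells and 20 Gja4 UMIs. The Gja4 difference reversed at a finer clustering (−0.17 at Louvain resolution 1.6), and that of Efna1 reversed with the clusters chosen after seeing the data (0.10). The differences of Gja5 (3.11 ± 1.14, edgeR adjusted p = 0.106) and Sema3g (1.31 ± 0.48, edgeR adjusted p = 0.112) did not pass. For Unc5b the difference between arterial-like and capillary-like cells was 0.30 ± 0.46 (edgeR adjusted p = 0.846), which does not show that both changes were alike. Between PCV-like and capillary-like cells none of 8 tested genes passed, beside 2.52% of 9400 genes called by edgeR, 928 at an unadjusted p under 0.05 and 66 called by DESeq2.

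Within EC-iCOUPOE, cells of a class were split by their Nr2f2 UMIs after thinning. Thinned, 73.9% of arterial-like cells in replicate 1 and 60.3% in replicate 2 held an Nr2f2 UMI. In replicate 1, 6 of 30 lymphocyte-like cells (20%, 53.3% unthinned) also held one. Nr2f2 stood at 639 CPM in those cells, above the 512 CPM of cluster 3. Pericyte-like or smooth muscle-like cells held Nr2f2 at 261 CPM in control, 1169 CPM in replicate 1 and 619 CPM in replicate 2. Epithelium-like cells held it at 135, 1189 and 397 CPM. An Nr2f2 UMI therefore cannot be read as expression by the cell that holds it. Unc5b in arterial-like cells of replicate 1 stood at 9.66 CPM in 207 cells with 0 Nr2f2 UMIs, 4.76 CPM in 210 cells with 1 UMI and 7.96 CPM in 377 cells with 2 or more. In replicate 2 it stood at 0, 13.3 and 15.2 CPM in 93, 75 and 66 cells, while 493 control cells with 0 Nr2f2 UMIs stood at 221 CPM. All 6 EC-iCOUPOE values lay below the control interval of 181.5 to 267 CPM, also in cells where no Nr2f2 UMI was seen. A cell with 0 UMIs at this depth may still express the gene. Gja4 stood at 579.7, 395 and 371 CPM over the same order in replicate 1 and at 430.1, 307 and 439 CPM in replicate 2, against 1108 CPM in the control, so the values decreased over this order in replicate 1 and not in replicate 2, with no test between cells. In cluster 3, cells with 0 Nr2f2 UMIs held Unc5b at 72.3 CPM (26.5 to 157) in replicate 1 and 27.5 CPM (5.68 to 80.4) in replicate 2, against 242 CPM (188 to 307) in the control.

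Relatives of these genes were read from lists of their families. Of the 19 other Eph and ephrin genes, 5 were tested in arterial-like cells and none passed, and likewise none of 5 netrin, Unc5, Slit and Robo genes, 2 connexins or 1 Tec kinase. Sema7a, a membrane-anchored semaphorin, was the 1 of 13 tested semaphorins, plexins and neuropilins that fell, beside 0.648% of all genes, from 157 CPM in control arterial-like cells to 29.6 and 29.8 CPM (−2.31, edgeR adjusted p = 0.0089), and it fell in capillary-like cells as well (−4.48, edgeR adjusted p = 0.00062). Of 16 tested genes of a Notch and arterial list, 4 fell in arterial-like cells and none rose, beside 0.648% of all genes tested lower and 0.945% higher, with a median log2 fold change of −0.87 against 0.03 over all genes. They were the chemokine receptor Cxcr4, also a marker used to name CRP-like cells (−4.68, edgeR adjusted p = 0.00233), the Notch ligand Dll4 (−2.70, edgeR adjusted p = 0.00314), the Notch target Hey1 (−2.28, edgeR adjusted p = 0.00977) and the Notch ligand Jag2, which is outside the 5 genes a list may name and was named after its value was seen. In capillary-like cells 4 of 15 fell, beside 0.86% of all genes, namely Cxcr4, Hey1, the Notch target Nrarp (−2.25, edgeR adjusted p = 0.0184) and the chemokine Cxcl12 (−2.53, edgeR adjusted p = 0.0114). In PCV-like and HEC-like cells no gene of these 6 lists passed. Of 5 tested genes of a venous list, 3 rose in arterial-like cells, beside 0.945% of all genes, with a median of 2.53 against 0.03 over all genes. The list holds Nr2f2, the overexpressed gene, so the count and the median include a rise fixed by the design. The 3 were Nr2f2 itself (7.32, edgeR adjusted p = 0.000177), the mucosal addressin Madcam1 (5.58, edgeR adjusted p = 0.000822), and the apelin receptor Aplnr (2.53, edgeR adjusted p = 0.0345). Nr2f2 alone passed in capillary-like, PCV-like and HEC-like cells. Madcam1 went from 48.6 CPM in control arterial-like cells to 1906 and 2422 CPM, with 2415 and 4010 CPM in cluster 2, which held 8 control cells. Within cluster 5 it stood at 50.9, 301 and 281 CPM (2.55, edgeR adjusted p = 0.00148) and within cluster 10 at 35.6, 331 and 382 CPM (3.35, edgeR adjusted p = 0.0232). Within cluster 5, Hey1 had a log2 fold change of −0.67 and did not pass (edgeR adjusted p = 0.999). Hey1 was called lower in cluster 10 (−2.37, edgeR adjusted p = 0.0493) and in CRP-like cluster 9 (−2.62, edgeR adjusted p = 0.000829). It did not pass in cluster 3 (−0.06, edgeR adjusted p = 0.994) or cluster 8 (−2.51, edgeR adjusted p = 0.301).

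The genes whose levels were most like each of the 10 were taken as those with the highest Pearson correlation of log2(CPM + 10) over the 15 sums of 5 classes and 3 libraries, among 10632 genes. The sums share libraries, classes and depth, so r is a description. For Unc5b they were Rapgef1 (0.944), St3gal5 (0.914) and Prom1 (0.902), for Gja4 Msx1 (0.932), Ssu2 (0.918) and Fn1 (0.911), and for Gja5 St14 (0.976), Kcnn4 (0.971) and Serpinf1 (0.970). Sema3g was most like Fn1 (0.965), P2ry2 (0.943) and Alpl (0.936), and Bmx most like Azin1 (0.962), Serpinf1 (0.959) and Clcf1 (0.958). For the ephrins they were Ddah2 (0.938), Hey1 (0.936) and Ebf1 (0.935) beside Efnb2, and Cd81 (0.901), Oaz2 (0.896) and Sipa1l2 (0.893) beside Efna1. For the receptors they were Hs3st1 (0.919), Prss23 (0.916) and Mier3 (0.890) beside Ephb4, and Paip2 (0.919), Abcc4 (0.907) and Zfp422 (0.890) beside Plxnd1. Gja1 had the lowest values, with Arpc4 (0.873), Prdx1 (0.852) and Psmc3 (0.836). Among the 10 themselves, the 6 pairs of Sema3g, Gja4, Gja5 and Bmx had r from 0.83 (Gja4 with Bmx) to 0.94 (Sema3g with Gja5). Unc5b had r of 0.83 with Efna1, 0.78 with Efnb2, 0.70 with Sema3g, 0.67 with Gja4, 0.58 with Gja5, 0.36 with Bmx and −0.32 with Ephb4.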

How the data were processed

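Blood EC of PP were assayed in 3 libraries (1 control, 2 EC-iCOUPOE), grouped by their labels. The deposited files hold counts, whole-number UMIs per gene and barcode, made by the authors with Cell Ranger 3.0.2 on mm10 according to the submitters' processing notes (the file header of replicate 1 gives 3.1.0), with no normalization. Every barcode held at least 500 UMIs, and cells of other types remained.

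A barcode counted as a cell from 500 genes and 1000 UMIs upwards, with no more than 10% of its UMIs mitochondrial. Scrublet in scanpy 1.11.5 scored doublets, and the highest-scoring cells, at 0.8% per 1000 barcodes, were left out (266, 188 and 14 cells), since its own thresholds marked only 138, 6 and 6. Libraries were integrated in Seurat 5.3.0 (R 4.3.3; 2000 variable genes without the 10 genes, their families, Notch and sex genes, 30 components). Single Louvain runs depended on numerical rounding, so a consensus of 40 runs (4 neighbour numbers, 10 seeds, linkage cut 0.5, resolution 1) was taken, a choice made after single runs had been seen, as were the doublet share and the rules for scoring markers. Each cluster took the name of the list whose markers stood highest over the other cells of a library (mean log2 ratio, 10 CPM added to both), unless other markers led it. Other cell types (2798, 1279 and 261 cells) were left out, and so were cells with as many UMIs of another type's markers as of blood EC markers (15, 7 and 2).

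UMIs were summed per class and library (20 cells for a test, 10 for a level) and tested with edgeR 4.0.16 (filterByExpr, TMM, quasi-likelihood). The SE is approximate, from the log2 fold change and the F statistic. A total of 6 comparisons was made on classes. Tests within single clusters, and between cluster 5 and other clusters, were added after seeing the data and are not in that total. P-values were adjusted over the genes of each comparison and not across comparisons. DESeq2 1.42.0, other scalings, filters, clusterings and cell sets were tried as alternatives. All 10 genes were named, with at most 5 called genes a list by smallest p and the 3 most alike genes for each. The members and lists were chosen with earlier results of these data known. Scripts were tested on simulated counts. At a dispersion of 0.05, 7 of 100 2-fold and 77 of 100 4-fold changes were recovered in arterial-like cells. In capillary-like cells these were 10 and 57 of 100. With a dispersion of 0 they were 82 and 99 of 100 in arterial-like and 56 and 92 of 100 in capillary-like cells. A gene that did not pass may therefore still have changed. Arterial-like cells held 604047 to 2498447 UMIs a library and capillary-like cells 377776 to 2277901, and levels of a few UMIs have wide counting intervals. Proteins and the day of isolation were not used here.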

Additional observations from a re-analysis of the deposited data

Results flagged for a closer look

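The change of Gja4 and Efna1 between groups differed between arterial-like and capillary-like cells. For Gja4 the class by genotype term was 1.11 ± 0.22 (edgeR adjusted p = 4.15e-05), with log2 ratios to control of −1.47 and −1.41 in arterial-like and −2.53 and −2.40 in capillary-like cells of replicates 1 and 2. For Efna1 it was −1.22 ± 0.26 (edgeR adjusted p = 0.000227), with arterial-like log2 ratios of −2.67 and −1.39. Both depended on the clustering, as given under the processing alternatives. Both classes drew mostly on different clusters in control and EC-iCOUPOE, and the term cannot tell a change within a class from that difference.

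Lymphatic-like EC of the EC-iCOUPOE libraries, 900 and 125 cells that entered no comparison, held 8 of the 10 genes above what a count of 0 allows. The control library had 2 such cells and gives no level. Mean levels over both libraries (SD, n = 2) were 173 ± 33.1 CPM for Unc5b, 472 ± 59.4 CPM for Gja4, 234 ± 61.5 CPM for Gja1, 158 ± 17.6 CPM for Ephb4, 89.7 ± 0.863 CPM for Efna1, 86.9 ± 59.0 CPM for Plxnd1, 70.4 ± 20.9 CPM for Efnb2 and 42.6 ± 16.1 CPM for Bmx. Unc5b stood at 196 and 149 CPM in these cells, while blood EC of the same libraries stood at 7.40 and 15.9 CPM. Gja5 had 0 UMIs in both, and Sema3g stood at 0.439 and 3.47 CPM.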

How the results depend on the processing

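Alternatives with another linear algebra kernel, other clusters or single clusters were chosen after seeing the data. No paired analysis was possible because the control library carries no replicate number and is a single library.

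The number of genes called moved most. In arterial-like cells it went from 145 to 35 (DESeq2's size factors in edgeR), 381 (no filter), 62 (DESeq2), 96 (resolution 1.6), 18 (doublets kept), 88 (other kernel), 0 (Xist UMIs only; edgeR, 636 at an unadjusted p under 0.05), 15 (Y-linked UMIs only), 76 (other clusters) and 455 (2-fold in both EC-iCOUPOE libraries). In capillary-like cells it went from 127 to 372 (no filter), 59 (DESeq2), 271 (resolution 0.6), 38 (resolution 1.6), 225 (doublets kept), 68 (other kernel), 66 (other clusters) and 537 (2-fold). In PCV-like cells it went from 41 to 24 (size factors), 168 (no filter), 26 (DESeq2), 191 (resolution 0.6), 173 (resolution 1.6), 15 (doublets kept), 63 (other kernel), 150 (Xist UMIs only) and 295 (2-fold), and in HEC-like cells from 249 to 26 (DESeq2). For arterial-like against capillary-like cells it went from 400 to 84 (DESeq2), 131 (resolution 1.6), 94 (other kernel), 152 (Xist UMIs only) and 121 (other clusters), and for PCV-like against capillary-like cells from 237 to 66 (DESeq2), 360 (resolution 0.6), 50 (resolution 1.6), 15 (other kernel) and 150 (Xist UMIs only).

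Gja1 changed sign in arterial-like cells (0.62 at resolution 0.6, 0.46 with doublets, 0.24 with the other kernel) and capillary-like cells (−0.28 at resolution 1.6, −0.65 with the other kernel), and Efnb2 in PCV-like cells (0.05 with the other kernel). Arterial-like against capillary-like differences changed sign at resolution 1.6 for Sema3g (−1.22), Unc5b (−0.95), Gja5 (−0.43) and Gja4 (−0.17), at resolution 0.6 for Gja1 (0.24) and Bmx (0.72), with doublets for Gja1 (0.05), with the other kernel for Unc5b (0), Gja1 (0.58) and Bmx (0.70), with Xist UMIs only for Bmx (0.81), and with other clusters for Efnb2 (0.44), Efna1 (0.10) and Bmx (0.93). PCV-like against capillary-like differences changed sign for Ephb4 (0.01) and Sema3g (−0.12) at resolution 1.6, Unc5b (−1.22) and Gja4 (1.05) with Xist UMIs only, and Gja4 (0.12) at resolution 0.6. The cause was not tested.

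Calls were lost in arterial-like cells for Gja5 with size factors (edgeR adjusted p = 0.0593), DESeq2 (adjusted p = 0.086), doublets, Xist or Y-linked UMIs only and other clusters, and for Sema3g under 8 alternatives (adjusted p of 0.0796 to 0.746). In capillary-like cells they were lost for Gja4 at resolution 1.6 (−1.0) and with the other kernel (−1.67), and for Sema3g with DESeq2, resolution 1.6 (−0.63), the other kernel and Xist UMIs only. Leaving out replicate 1 or 2 allows no test, and the log2 ratio of Unc5b was then −4.52 or −4.34 in arterial-like and −3.85 or −4.98 in capillary-like cells. In all, 441 alternative values kept direction and side of the threshold, 31 lost the call, 10 gained it and 25 changed sign. Capillary-like cells with Y-linked UMIs only were too few for a fit. Small classes limit depth, with 25 HEC-like cells in replicate 2.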

Other observations

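Control cells of the unnamed clusters also held arterial genes. Cluster 7, led by the capillary list with Scgb3a1 and Esm1 and nearly all from the control library (412, 17 and 15 cells), held Unc5b at 241 CPM, Gja4 at 338 CPM and Efna1 at 381 CPM in control. Cluster 13, with 32 control cells and Gja4, Plat and Mecom among its leading genes, held Gja4 at 1160 CPM, Efna1 at 639 CPM, Sema3g at 284 CPM and Bmx at 142 CPM. Over all blood EC, Ephb4 stood at 69.4 CPM in control, 132 CPM in replicate 1 and 136 CPM in replicate 2, and Plxnd1 at 65.9, 145 and 124 CPM, values that mix every class.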
